A study of Mus musculus with 12 samples.

Results

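The genes described here encode 10 enzymes that make, interconvert or break down threonine, glycine and serine: Tdh, Gcat, Gldc, Amt, Shmt1, Shmt2, Mthfd2, Phgdh, Psat1 and Psph. They were taken by gene symbol from a table of 23668 genes. All 10 were found, and all 10 were among the 12362 genes that reached 1 FPKM in at least 3 libraries and were tested. FPKM counts sequenced fragments relative to the length of the transcript and the size of the library, so levels can be set side by side between genes.

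The cells were mouse embryonic stem cells of strain SV129, grown on gelatin with leukemia inhibitory factor (LIF). There were 4 groups of 3 libraries, each treated for 24 h: TKO cells with 1 uM all-trans retinoic acid (ATRA), TKO cells with the ethanol vehicle, WT cells with 1 uM ATRA and WT cells with vehicle. TKO stands for cells deficient in the retinoic acid receptors, the nuclear receptors through which ATRA acts on transcription, and WT for wild type. How many clones of each genotype were grown, and whether the 3 libraries per group are separate cultures, is not in the labels; a p-value here covers no more than the spread among the libraries, which may be technical. Each group has a library lettered D, 1 lettered F and 1 lettered G, and these letters are used below.

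The receptor genes were checked first. Rarg averaged 15.0 ± 2.22 FPKM in TKO cells with ATRA and 14.9 ± 2.87 FPKM in TKO cells with vehicle, against 86.5 ± 12.9 FPKM in WT cells with ATRA and 48.0 ± 10.7 FPKM in WT cells with vehicle (SD, n = 3 each). Rarb averaged 0.0516 ± 0.0318 FPKM in TKO cells with ATRA and 0.132 ± 0.00861 FPKM in TKO cells with vehicle, against 6.57 ± 1.25 FPKM in WT cells with ATRA and 0.361 ± 0.137 FPKM in WT cells with vehicle. Rara averaged 9.30 ± 0.799 FPKM in TKO cells with ATRA and 8.54 ± 0.852 FPKM in TKO cells with vehicle, against 18.8 ± 1.35 FPKM in WT cells with ATRA and 11.1 ± 2.64 FPKM in WT cells with vehicle. With vehicle Rarg passed as lower in TKO cells in limma (log2 difference −1.61, adjusted p = 2.5e-04), and Rara (−0.32, adjusted p = 0.121) and Rarb (−0.26, adjusted p = 0.161) did not pass. Reads of Rara and Rarg were therefore still counted in TKO cells, and values per gene cannot tell intact transcripts from truncated ones. All 10 pluripotent stem cell markers, among them Pou5f1, Sox2 and Nanog, were at 1 FPKM or more in every library. Of 10 fibroblast markers, which would show feeder cells, 8 were under 1 FPKM in every group.

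Mouse embryonic stem cells are known for their dependence on threonine. Threonine dehydrogenase (Tdh) oxidises threonine in mitochondria and Gcat splits the product into glycine and acetyl-CoA, after which the glycine cleavage system, of which Gldc is the decarboxylase and Amt the aminomethyltransferase, passes a carbon of glycine to folate. Shmt1 in the cytosol and Shmt2 in mitochondria interconvert serine and glycine with folate as the carbon carrier, and Mthfd2 oxidises the folate-bound carbon in mitochondria. Serine itself is made from a glycolytic intermediate by Phgdh, Psat1 and Psph in that order.

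The levels of the 10 genes are shown by library in the plot of FPKM by group. Tdh had the highest mean of the 10 genes in both TKO groups, and its 3 libraries did not overlap those of Psat1, the next gene, in either. In WT cells with ATRA, Tdh had the lowest mean of the 10, below Gcat with no overlap. In WT cells with vehicle it ranked between Shmt2, whose libraries it overlapped, and Psph, whose libraries it did not. Psat1 and Mthfd2 were among the 3 highest in all 4 groups and overlapped each other in each. Gcat was the lowest gene in both TKO groups and in WT cells with vehicle, overlapping its neighbour in rank in all 3.

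**Figure D1:**
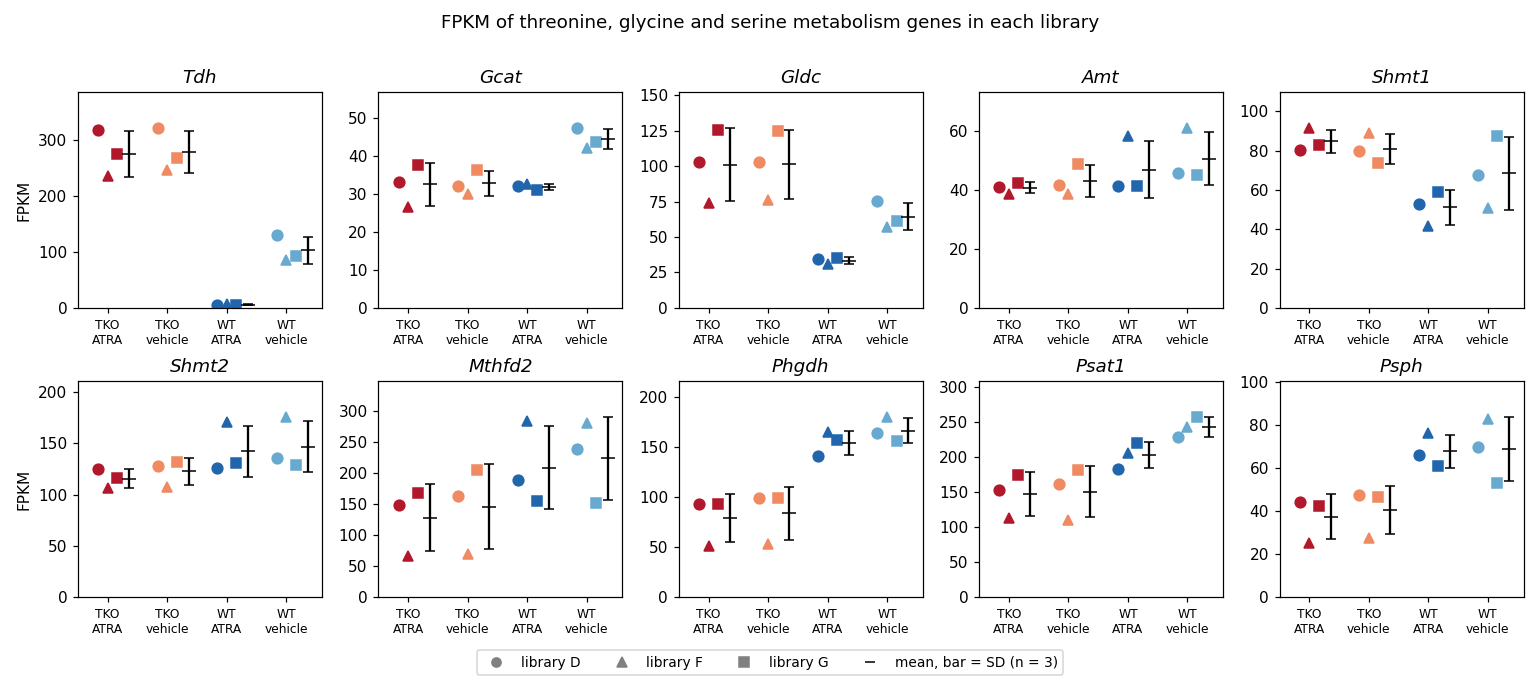
Level in FPKM (vertical axis, linear from 0, a separate scale per gene) of the 10 genes in the 12 libraries by group; marker shape is the library letter, and the bar with its error is the mean and SD of 3 libraries. Tdh lay between 5.07 and 6.76 FPKM in WT cells with ATRA and at 84.8 FPKM or more in every other library, and Phgdh lay at 98.9 FPKM or less in all 6 TKO libraries and at 141 FPKM or more in all 6 WT libraries.

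With ATRA in WT cells, Tdh fell most of the 10 genes, to 5.75 ± 0.898 FPKM, against 103 ± 24.5 FPKM with vehicle (SD, n = 3 each). Of the 10 genes, 3 fell and 0 rose: Tdh, Gcat and Gldc, in limma with Benjamini-Hochberg adjustment over all 12362 genes at 0.05, the test used for every adjusted p given here. Over all tested genes 16.7% passed in this comparison, and 5.14% passed as lower. The median log2 difference was −0.19 for the 10 genes and 0.05 for all tested genes. The libraries did not overlap between groups for 4 of the 10 genes, all of them lower with ATRA, against 34.4% of tested genes in either direction and 11.5% lower.

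Tdh (GRCm38 chromosome 14, 63492347 to 63509092, minus strand) measured 5.40, 6.76 and 5.07 FPKM in WT cells with ATRA in libraries D, F and G, against 131, 84.8 and 92.7 FPKM in WT cells with vehicle. The groups stand far apart, with each ATRA library below every vehicle library. The log2 difference was −3.93 ± 0.17 (SE; adjusted p = 2.1e-07), a level 15.2-fold lower on the log2(FPKM + 1) scale, and it passed under all 14 alternative settings tried. In bulk RNA, fewer cells with the transcript and less of it per cell cannot be told apart.

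Gcat (chromosome 15, 79030874 to 79038353, plus strand), the enzyme that acts directly after Tdh, measured 32.0, 32.4 and 30.9 FPKM in WT cells with ATRA, against 47.2, 42.0 and 43.7 FPKM in WT cells with vehicle. Each ATRA library lay below every vehicle library, and the fall was small beside that of Tdh, at −0.46 ± 0.12 (log2, SE; adjusted p = 0.0208). It no longer passed without library D of WT cells with ATRA (adjusted p = 0.064), library G of WT cells with ATRA (0.0622) or library D of WT cells with vehicle (0.0813). GENCODE holds 2 overlapping gene models named Gcat, and reads could be split between them.

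Gldc (chromosome 19, 30098447 to 30175429, minus strand), the glycine decarboxylase, measured 34.3, 30.7 and 35.1 FPKM in WT cells with ATRA, against 75.1, 56.8 and 61.2 FPKM in WT cells with vehicle. Again no ATRA library reached a vehicle library, and the log2 difference was −0.92 ± 0.20 (SE; adjusted p = 0.0106), which passed under all 14 alternatives. Its partner Amt (chromosome 9, 108296853 to 108302302, plus strand) measured 41.3, 58.1 and 41.2 FPKM with ATRA and 45.7, 60.9 and 44.9 FPKM with vehicle in WT cells. The Amt groups overlapped, with library F highest in both, and the log2 difference of −0.11 had a 95% interval of −0.45 to 0.23 (adjusted p = 0.699). With a block for each letter, described below, on WT libraries alone the interval was −0.23 to 0.01 (adjusted p = 0.114). The remaining subunits of the glycine cleavage system, named here as its other parts, were the carrier protein gene Gcsh and the dehydrogenase gene Dld, at log2 differences of −0.09 and 0.04 (adjusted p = 0.733 and 0.848).

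Of Shmt1, Shmt2, Mthfd2 and the serine synthesis genes Phgdh, Psat1 and Psph, none passed with ATRA in WT cells in the fit without a block. Shmt1 (chromosome 11, 60788104 to 60811718, minus strand) measured 52.7, 41.7 and 59.0 FPKM in WT cells with ATRA and 67.4, 50.6 and 87.3 FPKM in WT cells with vehicle. Each letter was lower with ATRA, but the groups overlapped, and the log2 difference was −0.39 ± 0.18 (SE; adjusted p = 0.166). Psat1, the transaminase of serine synthesis, did not overlap between groups, with a log2 difference of −0.26 ± 0.19 (SE; adjusted p = 0.397). Libraries of 1 genotype and letter deviated together, and in a fit with a block for each letter of a genotype Shmt1 and Psat1 both passed (adjusted p = 2.4e-04 and 2.5e-04), giving 5 of 10 genes against 55.7% of all tested genes. With the block fitted on WT libraries alone the adjusted p was 0.00135 for Shmt1 and 0.00254 for Psat1, again 5 of 10 genes, against 46.1% of tested genes. Shmt1 also passed without library F of WT cells with vehicle (−0.59, adjusted p = 0.0343).

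Markers of the stem cell state moved in the same comparison. The summed level of the 10 pluripotency markers was 5282 to 6500.04 FPKM in WT cells with ATRA, against 8007 to 9184 FPKM in WT cells with vehicle, and 8 of the 10 fell. Extraembryonic endoderm markers summed to 102 to 125 FPKM with ATRA and 72.8 to 81.8 FPKM with vehicle, and 3 of the 9 tested rose. Neural progenitor markers summed to 8.43 to 11.3 FPKM with ATRA and 3.29 to 6.05 FPKM with vehicle. Mesoderm markers summed to 1.46 to 2.23 FPKM with ATRA and 0.908 to 1.27 FPKM with vehicle, with all 8 markers under 1 FPKM in every WT library. The part of these cell types in the differences of the 10 genes was not tested.

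In TKO cells none of the 10 genes passed with ATRA, and 0.0% of all tested genes did in limma without a block. At an unadjusted p under 0.05 there were 12 of 12362 genes, of which 0 were among the 10. Under no effect at all, a share near 0.05 would lie below that level if the p-values were well calibrated. The 12 genes are far fewer, so the p-values of this fit are too large here. This fit counts the spread between letters as error, and its counts cannot show that ATRA had no effect in TKO cells. With the letter as a block on TKO libraries alone, 0 of the 10 and 0.0243% of tested genes passed. In that fit the unadjusted p was 0.005 for Mthfd2 (log2 difference −0.16), 0.00644 for Psph (−0.12) and 0.0235 for Phgdh (−0.08). Each of them was lower with ATRA in every letter and had an adjusted p of 0.734. The other genes had an unadjusted p of 0.0739 or more. The share of all tested genes at that unadjusted level in the block fit is not given here. Tdh measured 316, 235 and 274 FPKM in TKO cells with ATRA and 320.3, 247 and 268 FPKM in TKO cells with vehicle. Each ATRA library lay close to the vehicle library of its letter, and the groups overlapped. The log2 difference was −0.02, with a 95% interval of −0.40 to 0.36 without a block. With the letter as a block on TKO libraries alone the interval was −0.09 to 0.05. The libraries of the ATRA and vehicle groups overlapped for all 10 genes, while 1.33% of tested genes did not overlap.

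Gldc measured 103, 74.1 and 125 FPKM in TKO cells with ATRA, against 103, 75.8 and 125 FPKM in TKO cells with vehicle. Gcat measured 33.2, 26.5 and 37.5 FPKM in TKO cells with ATRA, against 31.9, 29.9 and 36.3 FPKM in TKO cells with vehicle. For both genes the groups overlapped, with library F lowest and library G highest in each. The log2 differences were −0.01 for Gldc (95% interval −0.46 to 0.44) and −0.02 for Gcat (−0.28 to 0.24). In this fit without a block the widest interval of the 10 genes was that of Mthfd2, −1.12 to 0.80 around −0.16. These intervals include the spread between letters. With the letter as a block on TKO libraries alone they were −0.07 to 0.06 for Gldc, −0.14 to 0.09 for Gcat and −0.26 to −0.06 for Mthfd2. The adjusted p of Mthfd2 in the block fit was 0.734.

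The ATRA effect differed between genotypes for Tdh. The effect in TKO cells minus that in WT cells was 3.91 ± 0.24 (log2, SE; adjusted p = 9.6e-06), past the threshold under all 19 alternatives. It was 1 of the 10 genes to pass this test of the difference, higher in TKO cells, against 5.43% of tested genes (1.47% higher and 3.96% lower). For Gldc the difference of effects was 0.91 ± 0.29 (adjusted p = 0.103) and for Gcat 0.44 ± 0.17 (adjusted p = 0.175). In the fit with a block for each letter of a genotype both passed (adjusted p = 3.0e-05 for Gldc and 0.00174 for Gcat), as did Shmt1 (0.00146) and Psat1 (0.00707), 5 of the 10 genes in all against 39.0% of tested genes. Both also passed without library F of TKO cells with ATRA (adjusted p = 0.0368 for Gldc and 0.0437 for Gcat).

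**Figure D2:**
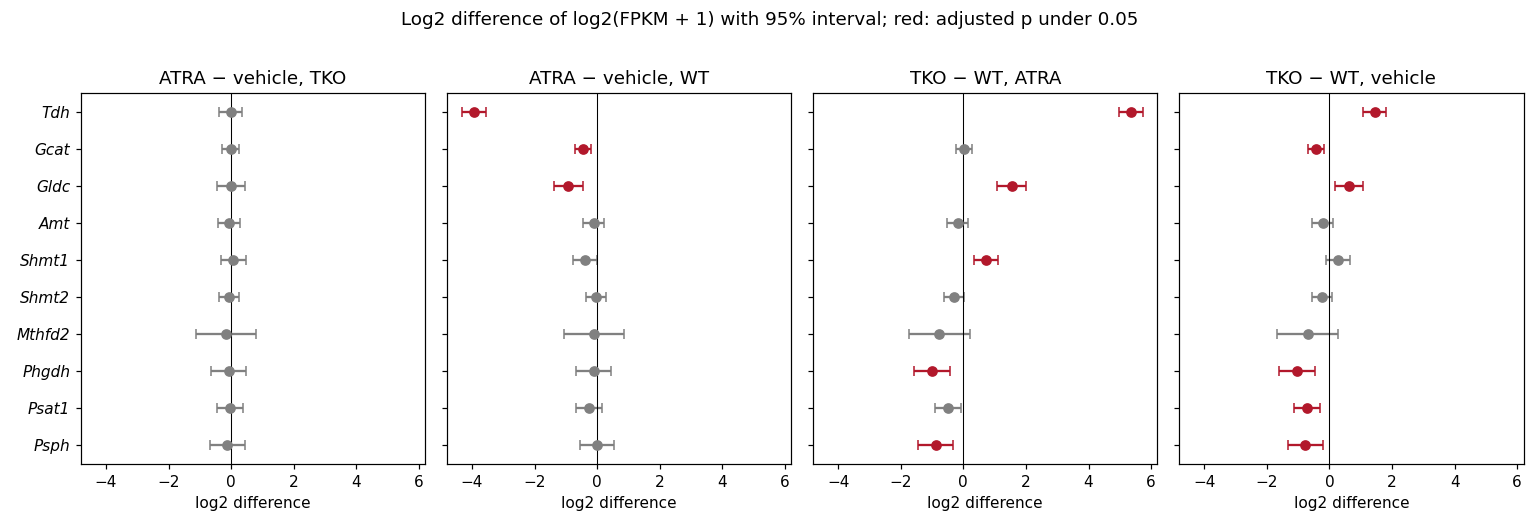
Log2 difference in log2(FPKM + 1) with its 95% interval from limma for the 10 genes in 4 comparisons; points in red passed the adjusted threshold of 0.05 and grey ones did not. For ATRA in WT cells the points of Tdh (−3.93), Gldc (−0.92) and Gcat (−0.46) are red and left of 0, for ATRA in TKO cells none is red, and in TKO against WT cells those of Tdh lie right of 0 and those of Phgdh left of 0.

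Tdh and Gldc were higher, and Phgdh and Psph lower, in TKO than in WT cells in both treatments, while Amt, Shmt2 and Mthfd2 passed in neither. With vehicle, 6 of the 10 passed, 2 higher in TKO cells (Tdh and Gldc) and 4 lower (Gcat, Phgdh, Psat1 and Psph), against 24.6% of tested genes (11.8% higher and 12.8% lower). With ATRA, 5 of the 10 passed, 3 higher (Tdh, Gldc and Shmt1) and 2 lower (Phgdh and Psph), against 42.1% of tested genes (16.4% higher and 25.7% lower), a share near that of the 10 genes. With vehicle 6 genes had no overlap between TKO and WT libraries, 2 higher and 4 lower, against 40.4% of tested genes (19.1% higher and 21.3% lower). With ATRA it was 7 genes, 3 higher and 4 lower, against 51.8% (20.1% higher and 31.7% lower). The 10 genes had a median log2 difference of −0.34 with vehicle and −0.23 with ATRA, beside −0.02 and −0.07 over all tested genes. These comparisons share their libraries with the ATRA comparisons above, so their values are not independent of those. The vehicle and ATRA comparisons are not independent of each other either, since libraries of the same genotype and letter were correlated at 0.814. The main fit treated all 12 libraries as independent, so a call in both treatments does not count as 2 separate results. Pluripotency markers summed to 6837 to 7285 FPKM in TKO cells with vehicle, against 8007 to 9184 FPKM in WT cells with vehicle, and 0 of 10 were higher and 2 lower. Extraembryonic endoderm markers summed to 114 to 165 FPKM in TKO cells with vehicle, against 72.8 to 81.8 FPKM in WT cells with vehicle, and 5 of the 9 tested were higher. With ATRA the pluripotency markers summed to 6745 to 7061 FPKM in TKO cells, against 5282 to 6500.04 FPKM in WT cells, and 7 of 10 were higher and 1 lower. The endoderm markers summed to 116 to 176 FPKM in TKO cells with ATRA, against 102 to 125 FPKM in WT cells with ATRA, and 4 of 9 were higher and 2 lower. Their part in these differences was not tested.

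Tdh was 2.72-fold higher in TKO cells than in WT cells with vehicle (log2 difference 1.45 ± 0.17, SE; adjusted p = 2.7e-04). With ATRA in both genotypes it was 40.8-fold higher (5.35 ± 0.17, adjusted p = 6.8e-09), which includes the fall in WT cells. In both treatments each TKO library lay above every WT library. Gldc was higher by 0.62 ± 0.20 with vehicle (log2, SE; adjusted p = 0.0455) and by 1.54 ± 0.20 with ATRA (adjusted p = 1.5e-04). The vehicle difference of Gldc passed under 7 of 14 alternatives, and it was lost at adjusted p of 0.0528 to 0.144 when any vehicle library other than F of TKO was left out, with no filter on low values (0.0678) and with only the groups compared in the fit (0.059). Gcat was lower in TKO cells with vehicle (−0.43 ± 0.12, adjusted p = 0.0227), a call lost without library D of TKO (0.0716), F of TKO (0.0754) or D of WT (0.086). With ATRA, Gcat differed by 0.01 between TKO and WT cells (95% interval −0.25 to 0.27).

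Amt measured 40.9, 38.7 and 42.4 FPKM in TKO cells with ATRA and 41.7, 38.5 and 48.8 FPKM in TKO cells with vehicle, overlapping the WT libraries of the same treatment. Its log2 differences between TKO and WT cells were −0.22 with vehicle (95% interval −0.56 to 0.12) and −0.18 with ATRA (−0.52 to 0.16), and neither passed.

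The balance between paired enzymes followed these differences. The ratio of Tdh to Gcat in FPKM was 8.55 ± 1.15 in TKO cells with ATRA, 8.55 ± 1.36 in TKO cells with vehicle, 0.180 ± 0.0245 in WT cells with ATRA and 2.30 ± 0.407 in WT cells with vehicle (SD, n = 3). The ratio of Gldc to Amt was 2.46 ± 0.524, 2.33 ± 0.315, 0.736 ± 0.181 and 1.31 ± 0.357 in the same order of groups. Neither ratio overlapped between WT cells with ATRA and with vehicle, or between TKO and WT cells in either treatment. An exact permutation test of 3 against 3 libraries gave p = 0.1 (2-sided) for each of these, the smallest it can give.

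**Figure D3:**
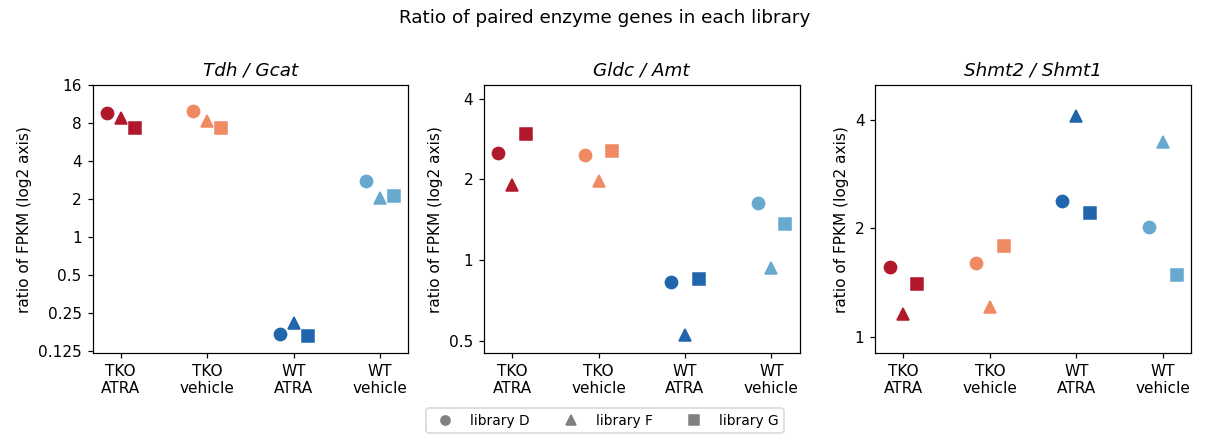
Ratio of FPKM of 3 gene pairs in each of the 12 libraries (log2 axis), by group, with the library letter as marker shape. Tdh to Gcat lies under 1 in the WT libraries with ATRA and above 2 in the other 9, Gldc to Amt is highest in the TKO groups, and Shmt2 to Shmt1 lies above 2 in all 3 WT libraries with ATRA and under 2 in all 6 TKO libraries.

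Of the folate-linked genes, Shmt1 was higher in TKO cells with ATRA, at 80.2, 91.4 and 83.0 FPKM, against 52.7, 41.7 and 59.0 FPKM in WT cells with ATRA. No TKO library overlapped the WT ones, and the log2 difference was 0.73 ± 0.18 (SE; adjusted p = 0.0069). With vehicle Shmt1 measured 79.8, 89.1 and 73.9 FPKM in TKO cells, against 67.4, 50.6 and 87.3 FPKM in WT cells, and the groups overlapped. There the difference was 0.27 ± 0.18 (adjusted p = 0.295), and 0.00 without the 4 libraries lettered F. Genes of chromosome 11, where Shmt1 lies, had a median log2 difference of 0.16 between TKO and WT cells with ATRA, against −0.09 for genes of the other autosomes. The part of that shift in the value of Shmt1 was not tested. Shmt1 shares 184 exon bases (4.74%) with Smcr8 on the other strand, and whether reads were counted by strand is not stated in the sources.

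Shmt2 (chromosome 10, 127517123 to 127522444, minus strand) measured 125, 106 and 116 FPKM in TKO cells with ATRA, against 126, 171 and 130.5 FPKM in WT cells with ATRA. Library F was the lowest in TKO cells and the highest in WT cells. The groups lay just clear of each other, and the log2 difference was −0.29 ± 0.15 (SE; adjusted p = 0.136). With vehicle it measured 128, 107 and 132 FPKM in TKO cells, against 136, 176 and 129 FPKM in WT cells. These groups overlapped, and the log2 difference was −0.25 ± 0.15 (adjusted p = 0.232).

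Mthfd2 (chromosome 6, 83305691 to 83325908, minus strand) measured 162, 69.7 and 204 FPKM in TKO cells with vehicle, against 238, 281 and 151 FPKM in WT cells with vehicle. With ATRA it measured 148, 66.3 and 168 FPKM in TKO cells, against 188, 283 and 154 FPKM in WT cells. The groups overlapped in both treatments, and the spread within each was wide. The log2 difference was −0.70 ± 0.44 with vehicle (SE; adjusted p = 0.265) and −0.77 ± 0.44 with ATRA (adjusted p = 0.183). Without the 4 libraries lettered F these were −0.06 and −0.11. Genes of chromosome 6 had a median difference of −0.24 between TKO and WT cells with vehicle, against −0.02 for the other autosomes.

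The promoters of the 3 serine synthesis genes, Phgdh, Psat1 and Psph, and of Mthfd2 are printed as the serine genes that passed as lower in TKO cells with vehicle and the gene lowest in library F of TKO cells relative to D and G. The set was chosen after the values were seen. RefSeq windows of GRCm38.p6, running from 250 bases before the start of transcription to 50 after it, were found for 9 of the 10 genes and not for Tdh. The windows lie at chr3:98339920-98340219, chr19:15925010-15925309, chr5:129787204-129787503 and chr6:83317555-83317854 in that order, all on the minus strand, and are read 5′ to 3′ along the gene. Capitals mark CCAAT or, where it lies on the other strand, ATTGG.
Phgdh: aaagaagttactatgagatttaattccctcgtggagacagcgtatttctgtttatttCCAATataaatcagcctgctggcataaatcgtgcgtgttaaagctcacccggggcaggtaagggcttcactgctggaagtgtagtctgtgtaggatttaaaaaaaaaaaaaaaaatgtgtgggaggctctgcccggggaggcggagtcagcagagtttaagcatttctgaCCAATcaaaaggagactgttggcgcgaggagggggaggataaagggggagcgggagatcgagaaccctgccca
Psat1: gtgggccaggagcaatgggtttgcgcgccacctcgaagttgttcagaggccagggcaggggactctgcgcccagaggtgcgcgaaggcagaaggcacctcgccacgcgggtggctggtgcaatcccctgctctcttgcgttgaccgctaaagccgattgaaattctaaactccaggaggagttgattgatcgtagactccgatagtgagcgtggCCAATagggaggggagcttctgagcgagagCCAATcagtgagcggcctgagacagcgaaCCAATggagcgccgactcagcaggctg
Psph: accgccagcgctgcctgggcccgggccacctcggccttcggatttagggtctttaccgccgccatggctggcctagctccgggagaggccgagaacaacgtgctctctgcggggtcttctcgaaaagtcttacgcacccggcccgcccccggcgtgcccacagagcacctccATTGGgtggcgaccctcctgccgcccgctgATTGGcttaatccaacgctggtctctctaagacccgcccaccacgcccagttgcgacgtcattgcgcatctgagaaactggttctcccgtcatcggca
Mthfd2: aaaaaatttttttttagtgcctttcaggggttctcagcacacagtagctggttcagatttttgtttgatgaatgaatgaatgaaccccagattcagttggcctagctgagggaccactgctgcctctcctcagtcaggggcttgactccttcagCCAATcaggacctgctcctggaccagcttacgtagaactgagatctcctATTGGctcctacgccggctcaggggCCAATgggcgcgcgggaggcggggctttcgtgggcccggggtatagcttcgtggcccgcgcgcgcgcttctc

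Phgdh has the motif at positions −193 and −23 from the start of transcription, and Psph at −78 and −48, both on the other strand. Mthfd2 has it at −96, −47 (other strand) and −22, and the printed window of Psat1 at −36, −6 and 24. The other Psat1 window, chr19:15924573-15924872, is not printed and has 0 matches. The 10 windows searched cover 9 of the genes, with 2 windows for Psat1, and the Tdh promoter was not searched. On both strands CCAAT stood in 7 of these 10 windows, against 37.4% of 32851 RefSeq promoter windows. TGATGNAA, written for the amino acid response element, stood in 0 of the 10 windows, against 3.97% of all windows. A retinoic acid response element written as AGGTCA repeated in the same direction with 5 bases between stood in 0 of the 10 windows and in 0.00913% of all, and its AGGTCA half-site in 1, that of Amt, against 16.3%. A match is only a run of letters in the window.

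All 3 serine synthesis genes were lower in TKO cells with vehicle, and 2 of them, Phgdh and Psph, with ATRA. Phgdh (chromosome 3, 98313170 to 98339990, minus strand), the dehydrogenase that starts the pathway, measured 98.9, 53.2 and 98.5 FPKM in TKO cells with vehicle, against 163, 180 and 156 FPKM in WT cells with vehicle. With ATRA it measured 93.3, 50.8 and 92.6 FPKM in TKO cells, against 141, 165 and 157 FPKM in WT cells. No TKO library reached any WT library, and within TKO cells library F was far below D and G. The log2 differences were −1.04 ± 0.26 with vehicle (SE; adjusted p = 0.0136) and −1.01 ± 0.26 with ATRA (adjusted p = 0.00888), about 2.05-fold and 2.01-fold lower, and both passed under all 14 alternatives. Without the 4 libraries lettered F they were −0.69 (adjusted p = 0.00222) and −0.67 (adjusted p = 7.0e-04). A processed pseudogene, Phgdh-ps1, is annotated on chromosome 7, and reads could be split between it and the gene.

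Psat1 (chromosome 19, 15904678 to 15947337, minus strand) measured 161, 110 and 181 FPKM in TKO cells with vehicle, against 228, 243 and 256 FPKM in WT cells with vehicle. The groups did not overlap and the log2 difference was −0.71 ± 0.19 (SE; adjusted p = 0.0178), lost without library F of TKO cells with vehicle (−0.50, adjusted p = 0.0522). With ATRA it measured 153, 112 and 174 FPKM in TKO cells, against 183, 205 and 220 FPKM in WT cells. These groups did not overlap either, and the log2 difference of −0.49 ± 0.19 did not pass (adjusted p = 0.0568). It passed with the letter within genotype as a random block (adjusted p = 0.0178), where 6 of the 10 genes and 39.9% of tested genes passed, and without library G of TKO cells with ATRA (−0.62, adjusted p = 0.0321).

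Psph (chromosome 5, 129765558 to 129787449, minus strand), the phosphatase that ends the pathway, measured 47.4, 27.5 and 46.4 FPKM in TKO cells with vehicle, against 69.9, 83.1 and 53.2 FPKM in WT cells with vehicle. With ATRA it measured 44.1, 25.2 and 42.5 FPKM in TKO cells, against 66.1, 76.2 and 61.1 FPKM in WT cells. The groups did not overlap in either treatment, and library F was again the lowest in TKO cells and the highest in WT cells. The log2 differences were −0.77 ± 0.25 with vehicle (SE; adjusted p = 0.0461) and −0.88 ± 0.25 with ATRA (adjusted p = 0.0161). The vehicle call was lost without library D of TKO (adjusted p = 0.0554), F of TKO (0.152), D of WT (0.119) or F of WT (0.152), with no filter on low values (0.0695) and with only the groups compared in the fit (0.0636). The ATRA call was lost without library F of TKO (adjusted p = 0.0601) or F of WT (0.0541). Without the 4 libraries lettered F the values were −0.37 (adjusted p = 0.0696) with vehicle and −0.54 (adjusted p = 0.0116) with ATRA. Psph shares 452 exon bases (10.4%) with Cct6a on the other strand, and Cct6a itself differed by −0.04 between TKO and WT cells with vehicle.

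The library lettered F stood apart in these genes, as the heat map of the enzyme and amino acid response genes shows. In TKO cells both F libraries lay below all D and G libraries for 9 of the 10 genes, while Shmt1 lay above. The same held for 44.9% of all tested genes as lower and 23.7% as higher. The difference between F and the mean of D and G was −1.30 for Mthfd2, −0.87 for Phgdh, −0.76 for Psph and −0.59 for Psat1 and Gldc (log2). In WT cells both F libraries lay above D and G for 5 of the 10 genes (15.5% of all tested genes) and below for Shmt1 (10.2%). ATRA and vehicle libraries were pooled here, so a gene that moved with ATRA, such as Tdh, can overlap for that alone. The WT shares are therefore not like for like with those of TKO cells. Library G of WT cells was the lowest of its group in both treatments for Amt, Mthfd2 and Psph, and the highest for Shmt1 and Psat1. For Amt with ATRA, G lay barely below D (41.19 against 41.32 FPKM). The share of all tested genes at these ranks was not counted.

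A list of 24 targets of the amino acid response, the program that the transcription factor ATF4 runs when amino acids are short, moved with the letter as well. In TKO cells both F libraries were lower than D and G for 23 of the 24 genes, against 44.9% of all tested genes, with a median log2 difference of −0.82 against −0.10 over all tested genes. Chac1, a glutathione-degrading enzyme chosen here after its values were seen, measured 4.41 and 7.17 FPKM in the F libraries of TKO cells, against 55.1 to 66.7 FPKM in D and G. In WT cells Chac1 was low in the G libraries instead, at 6.86 and 19.3 FPKM, against 70.7 to 82.6 FPKM in D and F. In WT cells 16 of the 24 were higher in F, against 15.5% of all tested genes, with a median of 0.57 against 0.03. The limit of pooling both treatments in WT cells holds here too. With ATRA in WT cells 1 of the 24 rose and 0 fell: Atf5, a transcription factor gene (0.76 ± 0.19, log2 and SE, adjusted p = 0.0191). Between TKO and WT cells with vehicle 1 of the 24 was higher, the cystine transporter gene Slc7a11 (0.60 ± 0.16, adjusted p = 0.0193), and 1 was lower, Atf5 (−1.20 ± 0.19, adjusted p = 0.00134). Their part in the TKO values of the serine genes was not tested.

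**Figure D4:**
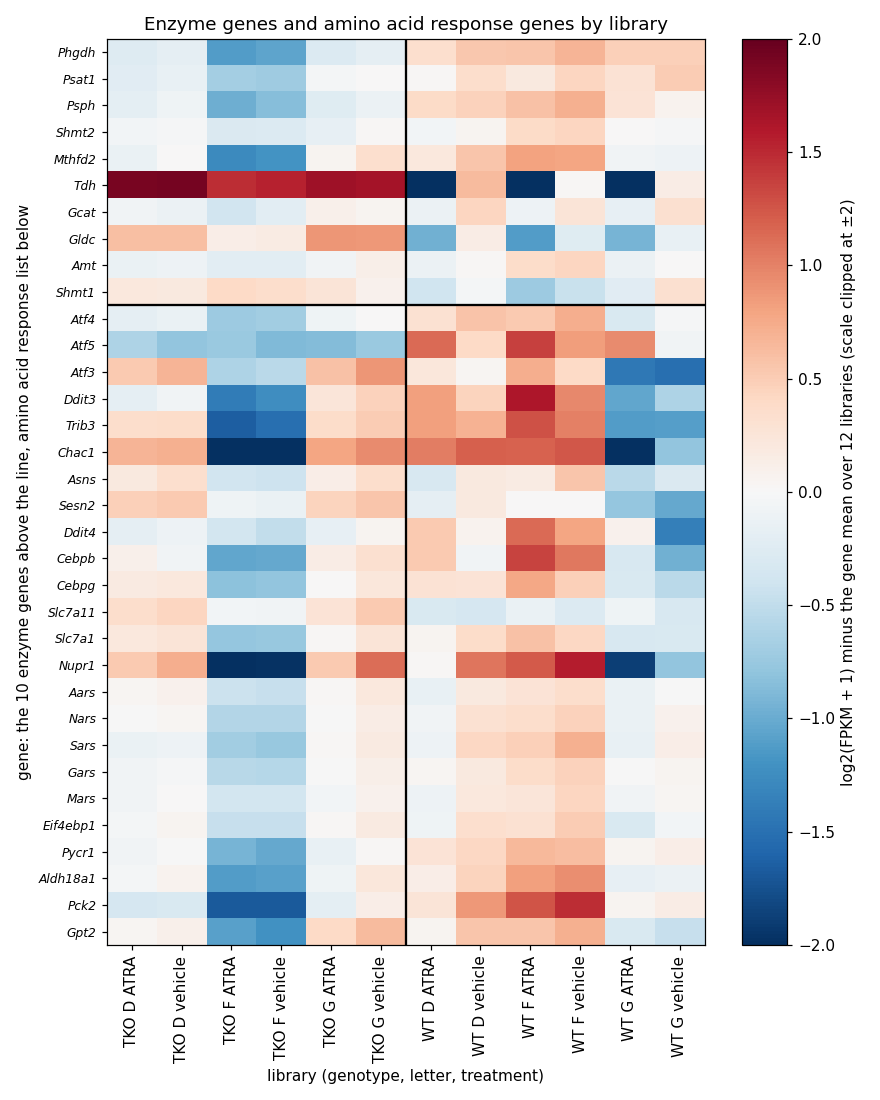
Level of the 10 enzyme genes (above the horizontal line) and the 24 amino acid response genes (below it) in the 12 libraries, as log2(FPKM + 1) minus the mean of the gene over all 12 (red above, blue below, colours clipped at ±2); columns are libraries by genotype, letter and treatment. In TKO cells both F columns are blue for Mthfd2, Phgdh, Psph, Psat1 and nearly all amino acid response genes, and the ATRA and vehicle columns of a letter look alike.

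Across the 12 libraries Tdh followed Gldc with a Pearson r of 0.94, and Phgdh followed Psph at 0.97 and Psat1 at 0.96. These libraries share 4 group means, and the values are descriptions. As deviations from the group means the correlations were 0.48 for Tdh with Gldc, and 0.92 for Phgdh with both Psph and Psat1. Of 11543 genes compared over the 12 libraries, those most like Tdh were Ankrd35 (r = 0.987), Enox1 (0.984), Lrriq4 (0.984), Ctbp2 (0.983) and Rinl (0.983). Ctbp2, a transcriptional corepressor, averaged 150.5 ± 16.3 FPKM in TKO cells with ATRA, 152 ± 14.5 in TKO cells with vehicle, 63.7 ± 5.29 in WT cells with ATRA and 111 ± 8.41 in WT cells with vehicle (SD, n = 3). The genes most opposite to Tdh were Nudt4 (r = −0.991), Gdpd5 (−0.990) and Ptpru (−0.990), and Nudt4, a phosphohydrolase, averaged 64.8 ± 2.99, 65.2 ± 2.85, 149.9 ± 10.2 and 82.0 ± 2.76 FPKM in that order of groups.

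The wider pathway was described with 4 further lists. With ATRA in WT cells 11.6% of all tested genes rose and 5.14% fell over the same fit. In this comparison 1 of 22 tested genes of folate one-carbon metabolism rose and 1 fell. These were the folate receptor gene Folr1 (0.92 ± 0.17, log2 and SE, adjusted p = 0.00419) and the purine synthesis gene Paics (−0.31 ± 0.06, 0.0058). Of 20 genes of methionine metabolism 1 rose, Ahcyl1 (0.31 ± 0.08, adjusted p = 0.0224), and 2 fell, the cystathionine synthase gene Cbs (−0.46 ± 0.12, 0.0203) and Adi1 (−0.26 ± 0.08, 0.0396). The medians of both lists were −0.01 and 0.00, beside 0.05 over all tested genes.

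Of 16 tested genes for amino acid transport, not all of them particular to serine, glycine or threonine, 3 rose and 2 fell with ATRA in WT cells. The neutral amino acid transporter gene Slc6a15 measured 0.675, 0.658 and 0.565 FPKM in WT cells with ATRA and 3.03, 1.69 and 2.08 FPKM with vehicle, with no overlap (−0.98 ± 0.13, adjusted p = 5.7e-04). The transporter genes Slc38a5 and Slc36a4 rose, by 0.85 ± 0.13 (adjusted p = 0.00101) and 1.03 ± 0.16 (adjusted p = 0.00117). Of 14 other enzyme genes of serine, glycine and threonine 1 rose and 0 fell. It was Gatm, which uses glycine for creatine synthesis, at 7.17, 6.45 and 5.64 FPKM with ATRA against 1.44, 1.45 and 0.938 FPKM with vehicle (1.71 ± 0.13, adjusted p = 1.1e-05). In TKO cells 0 genes of these 4 lists passed with ATRA in the fit without a block.

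Between TKO and WT cells with vehicle 11.8% of all tested genes were higher and 12.8% lower. In the folate list 4 of 22 were higher and 3 lower, including Aldh1l1, which oxidises formyl-folate in the cytosol (−0.86 ± 0.14, adjusted p = 0.00192), the purine synthesis gene Pfas (0.64 ± 0.17, 0.0185) and the mitochondrial folate carrier gene Slc25a32 (0.43 ± 0.12, 0.0246). In the methionine list 6 of 20 were higher and 1 lower. The lower one, the glycine N-methyltransferase gene Gnmt, differed by −1.51 ± 0.17 (adjusted p = 1.9e-04), while Enoph1 and the betaine methyltransferase gene Bhmt were higher by 0.79 ± 0.14 (0.00311) and 0.98 ± 0.24 (0.0125). Of the 16 transport genes 2 were higher, Slc6a15 (1.00 ± 0.13, adjusted p = 5.2e-04) and Slc38a2 (0.68 ± 0.15, 0.0067), and 1 was lower, Slc38a4 (−0.40 ± 0.12, 0.0302). Of the 14 other enzyme genes 4 were higher and 3 lower, with the serine racemase gene Srr (0.75 ± 0.09, adjusted p = 2.1e-04), the glutathione synthetase gene Gss (0.65 ± 0.12, 0.00313) and the dimethylglycine dehydrogenase gene Dmgdh (1.24 ± 0.25, 0.00492) among those higher.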

How the data were processed

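The data are RNA sequencing values of 12 mouse embryonic stem cell libraries (TruSeq RNA kit, single-end reads of a HiSeq4000, per the labels' protocols). Per the submitters' processing notes, STAR, Cufflinks and GRCm38 were used, with versions and roles not given in the sources used here. The deposited values are FPKM per gene, a unit taken from the values, since no header names it. Since FPKM divides out depth, the depth of each library is unknown, and counting intervals could not be had. The table's own positions are not those of GRCm38, and coordinates were taken from GENCODE vM21 by symbol.

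Of 23686 rows, 18 exact repeats were removed. Genes reaching 1 FPKM in 3 or more libraries entered limma 3.58.1 (R 4.3.3). Values were log2(FPKM + 1), the model held the 4 group means of all libraries and left 8 degrees of freedom, and moderation used a trend and robust settings, with Benjamini-Hochberg adjustment within each of 5 comparisons at 0.05. Fold changes on this scale understate those of low genes. The fit was tested on simulated data with independent noise in each library. Libraries of the same genotype and letter deviated together in the real data, so that test does not cover the error rates here. Alternatives changed the pseudocount to 0.1, the filter, the scaling, the libraries in the fit and the block, and left out single libraries.

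Column names carry letters and sample titles carry replicate numbers, and each column was given a group and no number. Deviations from group means correlated at 0.376 to 0.864 between libraries of the same genotype and letter, at −0.515 to 0.287 for the same letter in different genotypes, and at −0.73 to 0.315 for different letters in 1 genotype. By these values, and by no label, letters pair libraries within a genotype.

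The genes named are the 10 enzyme genes, the targeted receptor genes, up to 3 genes per list with the smallest adjusted p past the threshold in ATRA against vehicle in WT and in TKO against WT in vehicle, and the 5 genes most like and 3 least like Tdh. Outside this rule, Gcsh and Dld are named as further subunits of the glycine cleavage system, Chac1 after its values were seen, and Cct6a and Smcr8 as overlapping genes. The 10 genes and the lists were chosen with earlier results of these data known.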

Additional observations from a re-analysis of the deposited data

Results flagged for a closer look

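The ATRA effect on Tdh, the threonine dehydrogenase gene, differed between genotypes by a test of the difference itself. The effect in TKO cells minus that in WT cells was 3.91 on the log2(FPKM + 1) scale (adjusted p = 9.6e-06 in limma), from −0.02 in TKO cells and −3.93 in WT cells.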

How the results depend on the processing

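The counts of the 10 genes past the threshold moved with the paired libraries and the number left. With the letter as a replicate block within genotype, 5 passed for ATRA in WT, in the fit over all libraries and in the fit on WT libraries alone, and 5 for the difference of effects, against 3 and 1 without it. For the difference of effects 2 passed without both TKO libraries lettered F, and 2 without all 4 libraries lettered F. Leaving out 1 library at a time gave 2 to 4 for ATRA in WT, 0 to 0 for ATRA in TKO, 1 to 3 for the difference of effects, 3 to 5 for TKO against WT in vehicle and 4 to 6 with ATRA. The cause of these moves was not tested. For TKO against WT the letter as a fixed block was not run, since letter within genotype cannot be separated from genotype; a random block with a correlation of 0.814 was added after the data were seen, as were the fits without F libraries and on 1 genotype.

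Over single genes, comparisons and settings, 659 of 760 values kept their direction and side of the threshold, 23 no longer passed, 19 newly passed and 59 changed sign. Those 59 came from differences of at most 0.18 in size (log2), and 0 of them passed the threshold after the change. With 1 library left out at a time, the values for ATRA in WT ran from −0.27 to 0.03 for Amt, −0.18 to 0.09 for Shmt2 and −0.36 to 0.09 for Mthfd2. For ATRA in TKO they ran from −0.13 to 0.09 for Tdh, −0.13 to 0.11 for Gcat, −0.20 to 0.20 for Gldc, −0.15 to 0.02 for Amt and −0.62 to 0.25 for Mthfd2. There they also ran from −0.37 to 0.21 for Phgdh, −0.24 to 0.15 for Psat1 and −0.37 to 0.14 for Psph. For the difference of effects the ranges were −0.10 to 0.20 for Amt, −0.17 to 0.10 for Shmt2, −0.52 to 0.35 for Mthfd2, −0.26 to 0.32 for Phgdh and −0.36 to 0.14 for Psph, and for TKO against WT with ATRA −0.10 to 0.15 for Gcat. Without both TKO libraries lettered F, and without all 4 lettered F, ATRA in TKO gave 0.01 for Tdh, 0.05 for Gcat and 0.01 for Gldc. Without all 4, TKO against WT with ATRA gave 0.01 for Amt. The difference of effects was 0.03 for Shmt2 and 0.01 for Mthfd2 under median-of-ratios scaling, and −0.04 for Phgdh after quantile normalization. Of genes called with ATRA in WT, 69.2% were higher as deposited, 58.1% under median-of-ratios scaling and 55.5% after quantile normalization. For TKO against WT with ATRA the shares were 38.9%, 49.6% and 49.4%, and for the difference of effects 27.1%, 35.0% and 40.0%. The number of libraries, 3 per group, and the unknown depth limit the precision.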
